A study of Mus musculus with 4 samples.

Results

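Kinesins, cytoplasmic dynein and its cofactor dynactin are the motors that carry cargo along microtubules. Kinesins with an N-terminal motor domain walk towards the plus end, which in an axon means towards the terminal, and dynein walks back towards the cell body. Sensory neurons of the dorsal root ganglion rest heavily on both, since vesicles, mitochondria and neurotrophin signals have to travel the length of a peripheral axon. A separate set of kinesins builds the spindle and separates chromosomes in dividing cells, and is usually low in neurons that have left the cell cycle. The genes described here were taken by symbol: all kinesin heavy chains (Kif and Kifc), the kinesin light chains Klc1 to Klc4, the dynein subunits whose symbols begin with Dync1 or Dync2, the light chains Dynll1, Dynll2, Dynlrb1 and Dynlrb2, and the dynactin subunits Dctn1 to Dctn6. This gave 62 of the 41388 genes in the deposited tables.

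The RNA came from EGFP-positive cells sorted from thoracic to sacral (T11 to S1) dorsal root ganglia of Ret-EGFP mice at postnatal day 2. The labels give 1 animal for each of the 4 libraries. The study's title sets male against female. The design text describes C57BL/6J mice heterozygous for EGFP inserted at the Ret locus, while the genotype label reads Tg(Ret-EGFP)SJ/. Every library carried this genotype, no untreated or EGFP-negative group was analysed here, and Ret was present in all 4 libraries at 232 to 272 CPM (gene counts scaled to the same library total). The female library (female A) pooled 40 ganglia and each male library 20, although the labels give 1 animal for each. The number of animals in female A is thus uncertain. The labels of pool size and treatment describe the source of female A and male A as a P2 mouse and that of male B and male C as an embryo, although the stage label of all 4 is P2. Female A and male A are called the P2-mouse pair below, and male B and male C the embryo pair. The sources used here do not say whether these labels mark a difference of age or of handling.

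The libraries held 17388493 to 28066448 gene counts, and a count of 3, used as a detection floor, was worth 0.107 to 0.173 CPM. The 12 sensory neuron markers summed to 13429 and 12809 CPM in the P2-mouse pair and to 20647 and 19140 CPM in the embryo pair. The 13 Schwann cell markers went the other way, at 5349 and 8460 CPM against 3149 and 3209 CPM, as did the 10 fibroblast markers at 1400 and 1534 CPM against 319 and 334 CPM. The 9 satellite glia markers summed to 1315 and 1541 CPM against 645 and 1039 CPM, but their median went the other way, at 54.8 and 51.1 CPM against 62.8 and 61.8 CPM. No marker on these 4 lists was at 0 in any library. The 8 endothelial and mural markers summed to 92.6 to 103 CPM, and the 8 macrophage markers summed to at most 5.18 CPM. The part of these markers in the differences given below was not tested. In bulk RNA, fewer cells of a type and less RNA per cell cannot be told apart.

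Together the 62 motor genes took 0.981% and 0.934% of all counts in the P2-mouse pair and 1.02% and 1.04% in the embryo pair. Of these genes, 48 were at 1 CPM or more in every library and 8 were under 1 CPM in every library. Kif2b had no count in any library, and Kif12 had 1 count in male B, 1 in male C and none in the P2-mouse pair, both under the floor. Levels of different genes are compared below as RPKM (CPM per kilobase of exon). Per length, the dynein light chain Dynlrb1 ranked first with a mean of 485.7 RPKM over the 4 libraries, followed by the light chain Dynll1 and the kinesin Kif5a, each at 223 RPKM. Of the first 10 genes, 9 belong to dynein or dynactin. Ranking by CPM instead kept 7 of the first 10 genes and put Kif5a first.

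**Figure D1:**
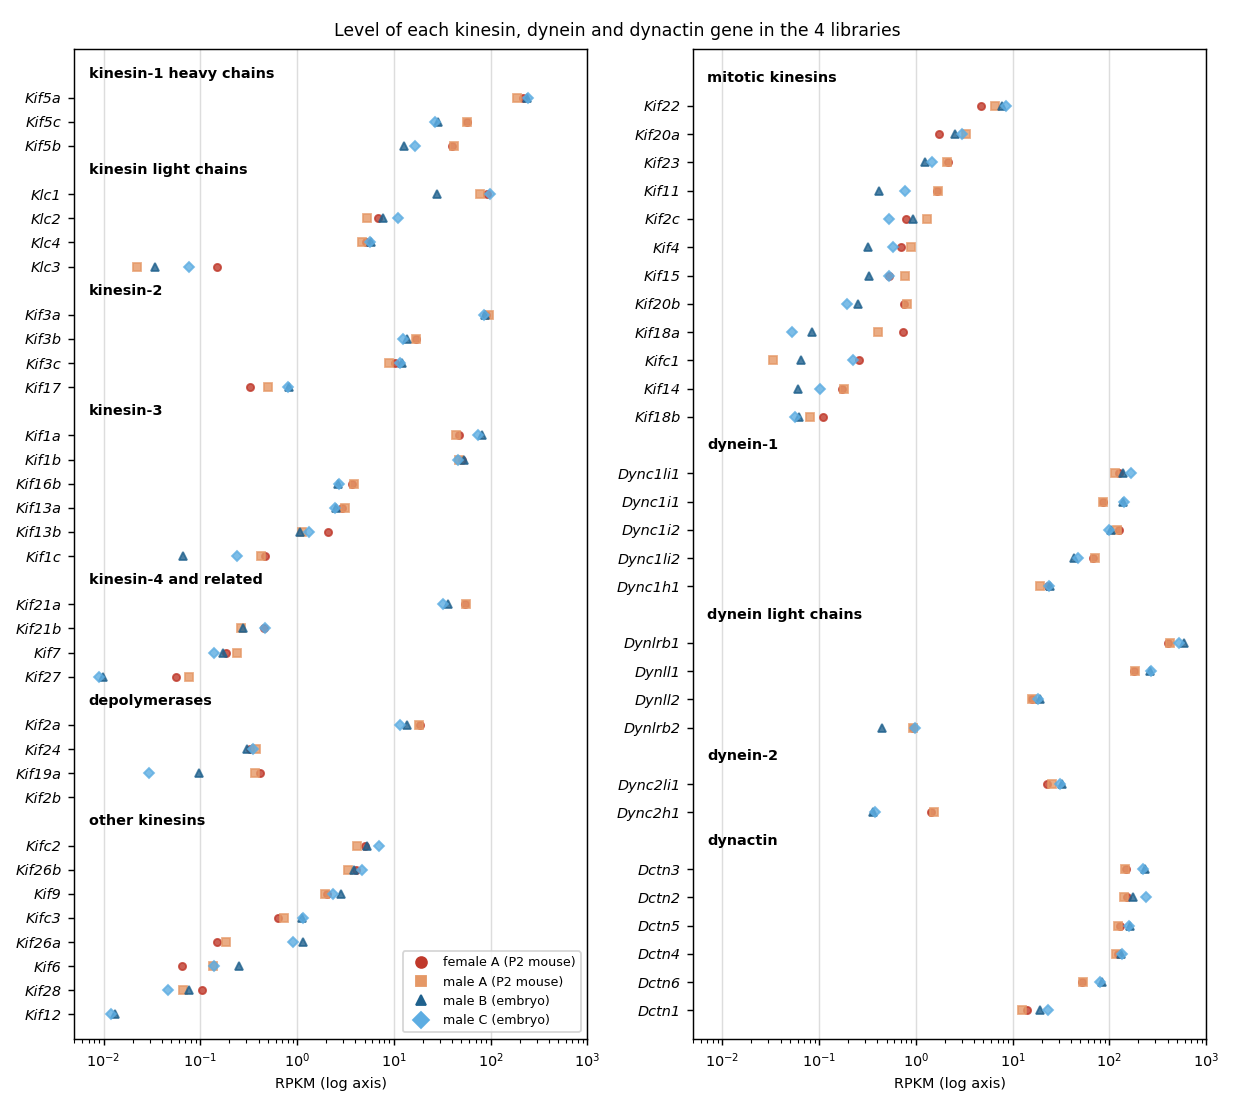
Level of each motor gene in the 4 libraries, as RPKM on a log axis, with the genes grouped by role and ordered by mean level. Each symbol is 1 library, and values at 0 are not drawn (all 4 of Kif2b and 2 of Kif12). All 6 dynactin genes lie above 10 RPKM in every library, and all mitotic kinesins lie below it.

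The P2-mouse pair and the embryo pair were compared across all 15568 genes that passed the filter on low counts, of which the P2-mouse pair had 22.3% called higher and 20.0% called lower. Among the motor genes 56 passed the filter: 10 were higher, 20 were lower and 26 did not pass the test (edgeR quasi-likelihood test, adjusted p under 0.05). The 10, and the counts below that build on them, include Kif19a, which passed the filter only through the pair where it is high. The median log2 difference of the 56 was -0.14, against 0.02 over all genes tested. The 6 genes left out were Klc3, Kif27, Kif18b, Kif28, Kif12 and Kif2b, none above 0.392 CPM. The 2 pairs did not overlap in CPM for 45 of the 56 genes, against 73.3% of all genes tested. The fit scaled the libraries by TMM factors, 1.05 and 1.03 in the P2-mouse pair and 0.961 and 0.961 in the embryo pair. The CPM and RPKM given here are without these factors, so a log2 difference can lie below that of the printed levels. Leaving out female A gave 7 motor genes higher and 11 lower, against 13.6% and 11.3% of all genes in that fit. Leaving out male A gave 5 and 10, against 11.8% and 10.3%. The calls of Klc2, Kif3c, Kif17, Kif2a, Kif19a, Kif11, Dync1li1, Dync2li1, Dynll2, Dctn2 and Dctn4 were lost in both cases, that of Kif22 without female A, and those of Kif5a, Kif20b, Dync1h1 and Dync1li2 without male A. All 30 kept their sign. Female A is the only female library, so a term for sex fits that library alone. The pair difference with this term thus rests on male A against male B and male C, as it does without female A. With sex as a term in the fit, 7 motor genes were higher and 9 lower, against 13.3% and 10.4% of all genes. The sex term ended the calls of the 11 genes lost in both cases above and of Kif22, Dync1h1 and Dynlrb1. GC content and transcript length also moved with the difference. Across the 56 genes the log2 difference had a Spearman correlation of -0.51 with GC content and 0.38 with exon length, and across 15474 genes these were -0.44 and 0.27. These are correlations across genes of the same 4 libraries and carry no test. The 10 genes that were higher had a median transcript GC content of 42.8%, and the 20 that were lower 53.2%. With offsets for GC content and transcript length, 5 motor genes were higher and 19 lower, against 14.3% and 19.4% of all genes.

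Kinesin-1 is the main plus-end motor of the axon, a dimer of heavy chains from Kif5a, Kif5b or Kif5c that usually carries light chains. Kif5a, the neuronal heavy chain (ENSMUSG00000074657, chr10:127225696-127263363 in GRCm38), was at 218 and 188 RPKM in the P2-mouse pair and at 240 and 244 RPKM in the embryo pair. Kif5b, the heavy chain that most cell types express, was at 39.7 and 42.4 RPKM in the P2-mouse pair and at 12.9 and 16.6 RPKM in the embryo pair. Kif5c (ENSMUSG00000026764, chr2:49619298-49774778), a further neuronal heavy chain, stood at 56.8 and 56.6 RPKM against 28.9 and 26.6 RPKM. All 3 genes separated the pairs without overlap, against 73.3% of all genes tested, but in different directions. Kif5a was lower in the P2-mouse pair, with a log2 difference of -0.37 (SE 0.09, adjusted p = 0.0124). Kif5b was 2.57-fold higher (log2 difference 1.36, SE 0.13, adjusted p = 0.000277), and Kif5c 1.89-fold higher (0.92, SE 0.09, adjusted p = 0.000268). Offsets for GC content and length brought Kif5b to 0.65 and Kif5c to 0.52, both still past the threshold. Without male A the difference of Kif5a was -0.27 and no longer passed (adjusted p = 0.114), while Kif5b and Kif5c were still called.

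The summed level of the heavy chains lay close together in the 4 libraries, at 314 and 287 RPKM in the P2-mouse pair and 282 and 287 RPKM in the embryo pair. Kif5a supplied 69.3% and 65.6% of that sum in the P2-mouse pair and 85.2% and 85.0% in the embryo pair. Kif5b made up 12.6% and 14.7% against 4.58% and 5.79%, and Kif5c 18.1% and 19.7% against 10.3% and 9.26%. Kif5a was thus the leading kinesin-1 transcript in all 4 libraries, with a smaller share in female A and male A.

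The light chains link kinesin-1 to cargo. Klc1, the main neuronal light chain, was at 91.6 and 77.0 RPKM in the P2-mouse pair, 27.9 RPKM in male B and 98.0 RPKM in male C. Male B stood apart from the other 3 libraries for this gene, and the pairs overlapped. The log2 difference of 0.31 did not pass the test (SE 0.46, adjusted p = 0.630). It was -0.34 without male B (adjusted p = 0.0203) and 1.44 without male C (adjusted p = 5.67e-06), so both passed with opposite signs. Klc2 was at 6.94 and 5.23 RPKM in the P2-mouse pair and at 7.67 and 11.2 RPKM in the embryo pair, and was lower in the P2-mouse pair (log2 difference -0.74, SE 0.21, adjusted p = 0.0254, but 0.187 without male A and 0.0516 without female A). Under the GC and length offsets Klc2 was at -0.47 and no longer called (adjusted p = 0.0639). Klc4 was at 5.13 and 4.68 RPKM against 5.79 and 5.69 RPKM, a log2 difference of -0.34 that did not pass (adjusted p = 0.163). Klc3, a light chain known from the testis, had 11, 1, 2 and 5 counts and was not tested. Klc1 was 88.2% and 88.6% of the light chain level in the P2-mouse pair, 67.4% in male B and 85.3% in male C.

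Kinesin-2 motors move vesicles in axons and carry material into cilia. Kif3a, the subunit shared by the heterotrimeric and neuronal forms, was at 90.5 and 95.9 RPKM in the P2-mouse pair and 88.1 and 85.0 RPKM in the embryo pair. Its log2 difference after the scaling of the fit was -0.01 (SE 0.09, adjusted p = 0.959), which does not show that the levels were equal. Kif3b, its usual partner, was at 16.9 and 16.9 RPKM against 13.8 and 12.4 RPKM and did not pass (log2 difference 0.26, adjusted p = 0.0897). Kif3c, the neuronal partner, was at 10.4 and 9.02 RPKM against 12.2 and 11.7 RPKM and was lower in the P2-mouse pair (log2 difference -0.41, SE 0.11, adjusted p = 0.0223, but 0.166 without male A and 0.0510 without female A). Of the Kif3c exon bases, 38.2% lie under a gene on the other strand, and without the strand setting reads of both genes cannot be told apart. Kif17, a homodimeric motor of dendrites and cilia, was lower still at 0.327 and 0.502 RPKM against 0.828 and 0.806 RPKM (log2 difference -1.11, SE 0.35, adjusted p = 0.0374, and between 0.0494 and 0.207 with each library left out). Under the offsets Kif17 was at -0.85 and no longer called (adjusted p = 0.114). Kifap3, the adaptor that completes the kinesin-2 trimer, was at 117 and 114 RPKM against 56.8 and 60.5 RPKM. It was higher in the P2-mouse pair (log2 difference 0.86, SE 0.08, adjusted p = 0.000295).

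Kinesin-3 motors carry synaptic vesicle precursors and dense core vesicles. Kif1a (ENSMUSG00000014602, chr1:93015464-93101951), the neuronal member, was at 47.8 and 43.7 RPKM in the P2-mouse pair and at 81.2 and 74.0 RPKM in the embryo pair. It was 1.83-fold higher in the embryo pair (log2 difference -0.88, SE 0.09, adjusted p = 0.000338), and the offsets left it at -0.96. Kif1b, which moves mitochondria and vesicle precursors, overlapped between the pairs at 50.7 and 47.2 RPKM against 53.4 and 45.6 RPKM (log2 difference -0.13, adjusted p = 0.318). Under the offsets Kif1b was called lower (-0.59, adjusted p = 0.00188). Kif1a thus took 48.3% and 47.9% of the Kif1 level in female A and male A and 60.3% and 61.7% in male B and male C, with Kif1b nearly all of the rest. By CPM the share of Kif1a was 33.2% and 32.8% against 44.6% and 46.2%, so Kif1b led in every library by that unit. Kif16b, an endosomal motor, was at 3.68 and 3.87 RPKM against 2.65 and 2.72 RPKM, and Kif13a, which moves recycling endosomes, at 2.91 and 3.16 RPKM against 2.52 and 2.49 RPKM. Neither passed the test, and neither did Kif13b or Kif1c, the remaining members at no more than 2.09 RPKM.

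Among the kinesin-4 family and its relatives, Kif21a, a regulator of microtubule growth in axons, was the abundant member. It was at 53.9 and 56.2 RPKM in the P2-mouse pair and at 36.1 and 32.0 RPKM in the embryo pair, and was called higher (log2 difference 0.58, SE 0.10, adjusted p = 0.00229). Under the offsets it was 0.18 and no longer called. Its paralogue Kif21b was far lower, at 0.455, 0.266, 0.277 and 0.464 RPKM in female A, male A, male B and male C, with the pairs overlapping. Kif7, a ciliary regulator of Hedgehog signalling, was at 0.187 and 0.239 RPKM against 0.173 and 0.140 RPKM and did not pass. Its relative Kif27, not tested, was at 0.0559 and 0.0773 RPKM against 0.00989 and 0.00900 RPKM.

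Of the microtubule depolymerases outside the mitotic set, Kif2a, which trims microtubule ends in growing neurites, was at 18.7 and 18.4 RPKM in the P2-mouse pair and at 13.7 and 11.5 RPKM in the embryo pair. It was called higher (log2 difference 0.45, SE 0.11, adjusted p = 0.0147), but the offsets turned its sign (-0.29, adjusted p = 0.0707). Without female A, male A or male C its adjusted p was 0.0853, 0.0885 and 0.0720. An opposite-strand gene, Dimt1 (mean 15.4 CPM), covers 17.4% of the Kif2a exon bases. Kif19a, which trims the tips of motile cilia, was at 0.412 and 0.368 RPKM against 0.0976 and 0.0296 RPKM. Its 47 and 26 counts in the P2-mouse pair and 9 and 3 in the embryo pair gave a log2 difference of 2.50 (SE 0.64, adjusted p = 0.0163). Without female A, male A or male C its adjusted p was 0.116, 0.0909 and 0.0582. Kif19a passed the filter on low counts only through the pair where it is high. Kif24 was at 0.325 and 0.373 RPKM against 0.303 and 0.351 RPKM, and the pairs overlapped.

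Of the 6 tested kinesins outside these families, Kif26a alone passed, against 22.3% of all genes called higher and 20.0% called lower. Kif26a, an atypical kinesin known to restrain GDNF-Ret signalling in enteric neurons, was at 0.149 and 0.183 RPKM in the P2-mouse pair and at 1.14 and 0.917 RPKM in the embryo pair. Both libraries of the embryo pair were several-fold above both of the other pair, from 29 and 22 counts against 179 and 158. The level was 6.75-fold higher in the embryo pair (log2 difference -2.76, SE 0.31, adjusted p = 0.000474), and the offsets left the difference at -2.87. The minus-end motor Kifc2 was at 5.03 and 4.19 RPKM against 5.33 and 7.07 RPKM, and Kifc3 at 0.635 and 0.735 RPKM against 1.12 and 1.14 RPKM, with adjusted p of 0.0617 and 0.0515. Both were called lower by edgeR with relative log expression scaling (adjusted p = 0.0465 and 0.0481) and with no filter on low counts (0.0250 and 0.0371). With GC and length offsets neither was called (0.303 and 0.184). Kif26b, the paralogue of Kif26a, was more abundant, at 4.10 and 3.35 RPKM against 3.92 and 4.72 RPKM, with overlapping pairs. It did not pass (log2 difference -0.33, adjusted p = 0.138) but was called lower under the offsets (-0.56, adjusted p = 0.0220) and without male B (-0.47, adjusted p = 0.0352). Kif9, known from motile cilia, was at 2.03 and 1.97 RPKM against 2.83 and 2.38 RPKM and did not pass. With an offset for exon length alone, Kif9 was called lower (-0.59, edgeR adjusted p = 0.0485).

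The mitotic and cytokinetic kinesins were low in every library. Their 12 genes summed to 14.3 and 18.1 RPKM in the P2-mouse pair and to 14.0 and 16.1 RPKM in the embryo pair. The 15 axonal transport motors (the kinesin-1, kinesin-2 and kinesin-3 genes above and both Kif21 genes) summed to 595 and 566 RPKM against 574 and 556 RPKM. By RPKM the axonal sum was 41.7, 31.3, 41.0 and 34.6 times the mitotic sum, with the pairs overlapping. By CPM it was 77.3 and 61.4 times in the P2-mouse pair and 100.6 and 82.1 times in the embryo pair, without overlap. Kif22, a chromosome arm motor, led the mitotic set at 4.66 and 6.55 RPKM in the P2-mouse pair and 7.72 and 8.58 RPKM in the embryo pair, and was called lower (log2 difference -0.66, SE 0.22, adjusted p = 0.0416, but -0.41 and 0.266 without female A). Leaving out Kif22 made the log2 ratio of the mitotic sums 0.62 in place of 0.10.

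Of the 11 mitotic kinesins tested, 3 were higher in the P2-mouse pair and Kif22 was lower, against 22.3% and 20.0% of all genes. Kif11 (ENSMUSG00000012443, chr19:37376403-37421859), the motor that pushes the spindle poles apart, was at 1.65 and 1.71 RPKM against 0.412 and 0.775 RPKM (log2 difference 1.38, SE 0.33, adjusted p = 0.0122). Kif20b, a cytokinesis motor, was at 0.756 and 0.806 RPKM against 0.254 and 0.195 RPKM (1.68, SE 0.34, adjusted p = 0.00603). Kif18a, which damps chromosome movements, was at 0.736 and 0.409 RPKM against 0.0852 and 0.0531 RPKM (2.94, SE 0.44, adjusted p = 0.00155). Without male A the adjusted p of Kif11 was 0.0774 and that of Kif20b 0.0534, and without female A that of Kif11 was 0.0614. The counts behind Kif18a were 203 and 70 in the P2-mouse pair and 19 and 13 in the embryo pair, so no library overlapped. These 3 transcripts are among the most AT-rich of the mitotic set, at 42.2%, 39.4% and 38.2% GC. Once GC and length were offset, Kif18a was still called (2.11), and Kif11 (0.83) and Kif20b (0.94) were not.

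The other mitotic kinesins did not pass in the fit of all 4 libraries. The midzone motor Kif23 was at 2.14 and 2.08 RPKM against 1.24 and 1.47 RPKM. Kif4, a chromosome motor, was at 0.704 and 0.897 RPKM against 0.320 and 0.575 RPKM, and Kif14, a cytokinesis motor, at 0.171 and 0.180 RPKM against 0.0605 and 0.102 RPKM. Those 3 genes did not overlap between the pairs, and neither did 73.3% of all genes tested. The log2 difference of Kif4 was 0.71, and ran from 0.34 without male B to 1.15 without male C. Kif20a, another cytokinesis motor, was at 1.74 and 3.27 RPKM against 2.53 and 2.99 RPKM, and the depolymerase Kif2c at 0.800 and 1.29 RPKM against 0.930 and 0.525 RPKM. Kif15, which backs up Kif11, was at 0.525 and 0.776 RPKM against 0.330 and 0.534 RPKM. The pairs overlapped for these 3 genes. Opposite-strand genes cover 33.2% of the Kif20a exon bases (Cdc23, at a mean of 113 CPM) and 15.1% of those of Kif4 (Pdzd11, 79.2 CPM), so reads of these genes and their neighbours cannot be told apart. The minus-end motor Kifc1 shares 39.7% of its 50-base words with other genes, and its 25, 2, 5 and 19 counts are uncertain. The 11 proliferation markers, Mki67 and Top2a among them, summed to 84.2 and 101 CPM in the P2-mouse pair and to 70.9 and 73.3 CPM in the embryo pair. Their median went the other way, at 4.06 and 4.77 CPM against 4.90 and 5.66 CPM. Among them Top2a was at 38.0 and 42.2 CPM against 20.3 and 18.8 CPM, and Cdk1 at 10.9 and 12.4 CPM against 14.7 and 18.7 CPM. Their part in the levels of the mitotic kinesins was not tested.

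RefSeq promoter windows (GRCm38.p6) were matched for 47 of the 62 genes. For 36 of the 47, sequence just after the start was found in the transcripts of the gene. For a motor gene the start nearest its annotated 5′ end was used, and for the promoters of all genes the first listed. The shares below are thus not fully alike in how the windows were chosen. Each window was searched over the 250 bases before the RefSeq start, on both strands, for CCAAT (the CCAAT box), TTTGAA (the cell cycle homology region of many mitotic genes) and GGGCGG (the GC box). The letters of these motifs do not overlap one another within the windows printed here. CCAAT was present in 34.5% of 27025 promoters of the same length, in 22 of the 47 matched motor genes and in 7 of the 11 matched mitotic kinesins. TTTGAA was present in 16.3% of all promoters, in 8 of the 47 and in 5 of the 11. GGGCGG was present in 32.9% of all promoters, in 28 of the 47 and in 6 of the 11. A match is a run of letters and not a binding site. The windows of 2 axonal motors that differed in opposite directions (Kif5c, chr2:49619036-49619285, plus strand, and Kif1a, chr1:93101875-93102124, minus strand) and of 2 mitotic motors that were higher in the P2-mouse pair (Kif11, chr19:37376132-37376381, plus strand, and Kif18a, chr2:109280488-109280737, plus strand) are shown 5′ to 3′, with motif matches of either strand in capitals.
Kif5c: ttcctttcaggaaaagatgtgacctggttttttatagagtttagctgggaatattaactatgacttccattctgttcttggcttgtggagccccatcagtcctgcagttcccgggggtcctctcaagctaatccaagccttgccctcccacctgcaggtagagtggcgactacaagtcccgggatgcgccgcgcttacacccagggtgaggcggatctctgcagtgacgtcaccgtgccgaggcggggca
Kif1a: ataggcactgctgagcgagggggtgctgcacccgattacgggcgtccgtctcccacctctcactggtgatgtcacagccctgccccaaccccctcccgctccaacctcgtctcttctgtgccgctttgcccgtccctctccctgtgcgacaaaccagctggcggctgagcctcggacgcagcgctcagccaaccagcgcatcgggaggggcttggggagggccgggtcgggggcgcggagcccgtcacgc
Kif11: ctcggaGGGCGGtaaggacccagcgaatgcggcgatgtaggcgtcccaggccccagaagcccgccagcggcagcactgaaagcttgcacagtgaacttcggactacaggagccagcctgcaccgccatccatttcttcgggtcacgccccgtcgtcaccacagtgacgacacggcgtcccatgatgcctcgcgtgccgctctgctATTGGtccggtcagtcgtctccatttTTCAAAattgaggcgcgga
Kif18a: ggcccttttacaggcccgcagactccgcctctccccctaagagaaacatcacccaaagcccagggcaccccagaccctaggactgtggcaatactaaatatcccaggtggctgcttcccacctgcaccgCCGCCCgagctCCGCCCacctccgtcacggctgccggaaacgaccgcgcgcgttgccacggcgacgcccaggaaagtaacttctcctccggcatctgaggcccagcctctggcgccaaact
The Kif11 window held each of the 3 motifs, CCAAT and TTTGAA as their reverse complements. The Kif18a window held GGGCGG on the opposite strand at 2 places and neither of the other motifs. The windows of Kif5c and Kif1a held none of the 3. The RefSeq start used for Kif1a lies inside the gene span given above, so part of its window lies within that span.

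Cytoplasmic dynein-1 is built from a heavy chain, intermediate chains, light intermediate chains and light chains. The heavy chain Dync1h1, the motor subunit itself, was at 23.1 and 19.1 RPKM in the P2-mouse pair and at 24.5 and 23.7 RPKM in the embryo pair. It was called lower by a small margin (log2 difference -0.31, SE 0.10, adjusted p = 0.0474), and without male A it was -0.18 (adjusted p = 0.327). Dync1i1 (ENSMUSG00000029757, chr6:5725639-6028039), the intermediate chain enriched in neurons, was at 86.6 and 86.8 RPKM against 140 and 143 RPKM. It was 1.76-fold higher in the embryo pair (log2 difference -0.82, SE 0.08, adjusted p = 0.000304). Dync1i2, the intermediate chain of most tissues, was at 126 and 120 RPKM against 105 and 98.4 RPKM and did not pass (0.16, adjusted p = 0.143). Under the offsets its sign turned and it was called lower (-0.42, adjusted p = 0.00600). Dync1i1 was thus 40.7% and 41.9% of the intermediate chain level in female A and male A, and 57.1% and 59.2% in male B and male C. By CPM its share was 19.7% and 20.6% against 32.3% and 34.2%, so Dync1i2 led in every library by that unit.

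The light intermediate chains, which bind the cargo adaptors, also parted. Dync1li1 was at 125 and 115 RPKM in the P2-mouse pair and at 138 and 168 RPKM in the embryo pair (log2 difference -0.47, SE 0.11, adjusted p = 0.0121). Dync1li2 was at 67.1 and 70.9 RPKM against 43.2 and 47.8 RPKM (0.49, SE 0.09, adjusted p = 0.00470). The 2 chains thus differed in opposite directions, and the share of Dync1li1 was 65.1% and 61.8% against 76.1% and 77.8%. Dync1li2 was at 0.24 under the offsets and no longer called. Without male A the adjusted p was 0.118 for Dync1li1 and 0.0609 for Dync1li2, and without female A it was 0.0607 for Dync1li1.

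Of the 4 light chains, 3 were called lower in the P2-mouse pair, against 20.0% of all genes. Dynll1, the LC8 light chain that is also a hub for many other proteins, was at 178 and 183 RPKM against 261 and 271 RPKM (log2 difference -0.67, SE 0.08, adjusted p = 0.000571). Dynlrb1, the roadblock light chain, was at 406 and 429 RPKM against 589 and 519 RPKM (-0.52, adjusted p = 0.00362), and Dynll2 at 15.8 and 15.8 RPKM against 19.0 and 18.2 RPKM (-0.35, adjusted p = 0.0463). The offsets left Dynll1 at -0.65 and still called, while Dynlrb1 at -0.09 and Dynll2 at -0.04 were not. Dynll2 kept its call only without male C (adjusted p = 0.0297, against 0.0844 to 0.194 with another library left out). Dynlrb2, found mainly in ciliated cells, had 13, 8, 5 and 12 counts and its pairs overlapped. Dynll1 supplied 91.9% and 92.0% of the LC8 level in the P2-mouse pair and 93.2% and 93.7% in the embryo pair.

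Dynein-2 returns cargo from the tip of the cilium. Its heavy chain Dync2h1 was at 1.44 and 1.54 RPKM in the P2-mouse pair and at 0.358 and 0.383 RPKM in the embryo pair. It was 3.71-fold higher in the P2-mouse pair (log2 difference 1.89, SE 0.18, adjusted p = 0.000253), and 1.12 under the offsets. Its light intermediate chain Dync2li1 went the other way, at 23.0 and 25.3 RPKM against 32.1 and 30.9 RPKM (-0.50, SE 0.13, adjusted p = 0.0177, but 0.141 without female A and 0.0669 without male A). Subunits of 1 complex thus differed in opposite directions.

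**Figure D2:**
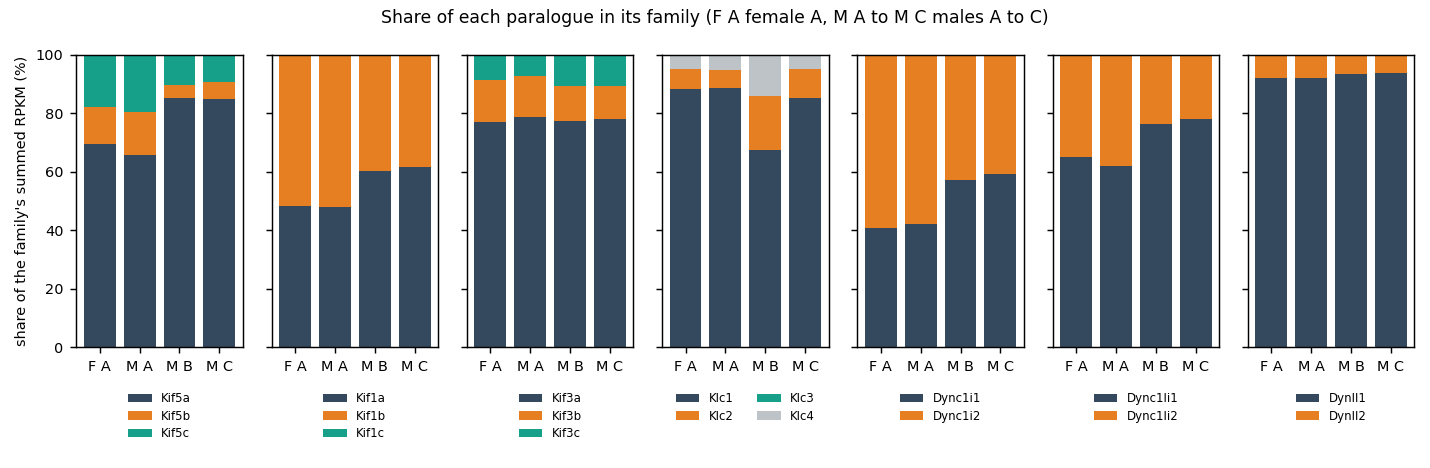
Share of each paralogue in the summed RPKM of its family, in percent, for the 4 libraries (female A, male A, male B, male C from left to right in each panel). The shares of Kif5a, Kif1a, Dync1i1 and Dync1li1 are smaller in the first 2 bars than in the last 2, those of Kif3a and Dynll1 lie close together, and Klc1 is low in male B.

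Dynactin joins dynein to its cargo and keeps it on the microtubule. Each of the 6 Dctn genes was called lower in the P2-mouse pair, against 20.0% of all genes. Their adjusted p lay between 0.000566 and 0.0407 and their median log2 difference was -0.68. Dctn1 (ENSMUSG00000031865, chr6:83165920-83200117), the p150 arm that binds dynein and microtubules, was at 14.2 and 12.5 RPKM against 19.1 and 23.5 RPKM (log2 difference -0.79, SE 0.13, adjusted p = 0.00212). Dctn2, the shoulder subunit dynamitin, was at 154 and 143 RPKM against 177 and 242 RPKM (-0.61), and Dctn3, the other shoulder subunit, at 150 and 145 RPKM against 236 and 222 RPKM (-0.75). The shoulder and arm subunits thus separated the pairs without overlap, against 73.3% of all genes tested. Dctn4, Dctn5 and Dctn6 belong to the pointed end complex that caps the short dynactin filament. Dctn6 was at 51.7 and 53.7 RPKM against 83.8 and 79.8 RPKM (-0.75), and Dctn5 at 130 and 124 RPKM against 165 and 161 RPKM (-0.47). Dctn4 was the closest between the pairs, at 124 and 118 RPKM against 131 and 134 RPKM (-0.25, SE 0.08, adjusted p = 0.0407). All 6 were still called under the offsets, between -0.80 and -0.31, against 19.4% of all genes. Without female A or male A the adjusted p of Dctn2 was 0.0649 and 0.104, and that of Dctn4 reached 0.236 without male A. The same 2 genes lost the call with sex as a term.

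**Figure D3:**
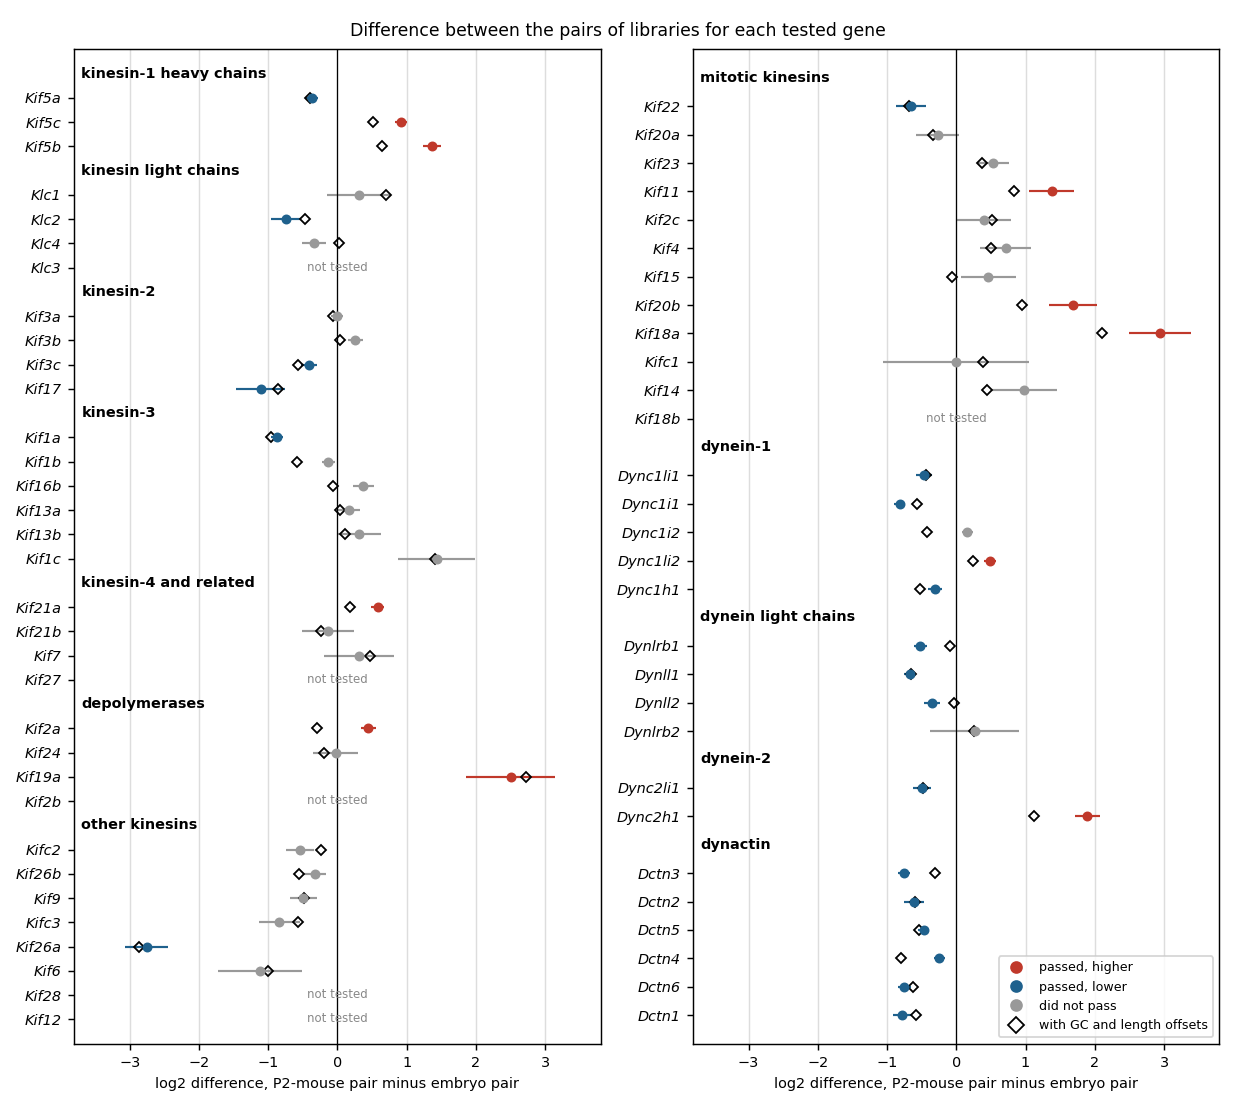
Log2 difference between the P2-mouse pair and the embryo pair for each of the 56 tested motor genes, from edgeR, by role. Filled circles are estimates with bars of 1 SE (red called higher, blue called lower, grey not called), and open diamonds are the estimates with GC and length offsets. All 6 dynactin genes lie left of 0 under both fits, and Kif2a crosses 0.

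The other genes of the pathway, a list of 55 adaptors, regulators and further subunits, went both ways: 54 were tested, 17 were higher in the P2-mouse pair and 11 lower, against 22.3% and 20.0% of all genes. Their median log2 difference was 0.01, against 0.02 over all genes. The most abundant were Dynlt3, Fez1 and Actr1a. Actr1a, the actin-related protein of the dynactin filament, was at 141 and 136 RPKM against 220 and 229 RPKM (log2 difference -0.81, SE 0.08, adjusted p = 0.000295). Its paralogue Actr1b was at 85.9 and 81.6 RPKM against 108 and 126 RPKM (-0.60), and Capzb, the barbed end capping subunit, at 73.3 and 78.4 RPKM against 120 and 130 RPKM (-0.84). The filament genes were thus lower in the P2-mouse pair, as were the Dctn genes. Actr10, of the pointed end, was called lower too (99.5 and 104 RPKM against 127 and 117 RPKM, -0.37, adjusted p = 0.0108), but its adjusted p was 0.107 without female A and 0.0617 without male A. Among the remaining capping subunits, Capza2 was higher, at 158 and 168 RPKM against 113 and 112 RPKM (0.43, adjusted p = 0.00447). It was -0.21 with the offsets, and its adjusted p was 0.0557 without male A. Capza1, which shares 61.4% of its 50-base words with other genes, was at 12.4 and 16.8 RPKM against 10.6 and 10.4 RPKM. It did not pass (0.35, adjusted p = 0.128, and 0.0481 without female A). Actr10, Capza1, Capza2 and Kifap3 were named after their values were seen.

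Of the pathway genes called higher, Cenpe, Hook3, Spag9, Hook1 and Bicd1 differed most. Hook3, an adaptor that activates dynein, was at 7.23 and 7.00 RPKM in the P2-mouse pair and at 2.17 and 1.94 RPKM in the embryo pair (log2 difference 1.68, SE 0.12, adjusted p = 0.000141). Its relative Hook1 was at 1.61 and 1.47 RPKM against 0.573 and 0.541 RPKM (1.35), and Bicd1, which links dynein to Golgi and secretory vesicles, at 7.91 and 9.45 RPKM against 3.47 and 2.95 RPKM (1.32). Spag9, a scaffold of kinesin-1 and dynactin known as JIP4, was at 39.5 and 41.1 RPKM against 12.9 and 12.0 RPKM (1.58, SE 0.09, adjusted p = 0.000108). Cenpe, the kinetochore kinesin whose symbol falls outside the motor list, was at 0.447 and 0.604 RPKM against 0.192 and 0.0874 RPKM (1.80, SE 0.45, adjusted p = 0.0153). After the same offsets Hook3 (0.71), Spag9 (0.96) and Hook1 (0.68) were still called, and Bicd1 (0.36) and Cenpe (1.08) were not. Without male A the adjusted p of Cenpe was 0.117.

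Of the pathway genes called lower, Map7d1, Capzb, Actr1a, Rab11fip3 and Actr1b differed most. Rab11fip3, a dynein adaptor of recycling endosomes, was at 1.60 and 1.28 RPKM against 2.02 and 2.52 RPKM (log2 difference -0.77, SE 0.21, adjusted p = 0.0201, but 0.0608 without female A and 0.152 without male A). Map7d1, a microtubule protein that recruits kinesin-1, was at 4.30 and 3.01 RPKM against 6.86 and 5.66 RPKM (-0.88, adjusted p = 0.0120), and at -0.66 without male A it did not pass (adjusted p = 0.102). Fez1, a kinesin-1 adaptor of axons, was at 184 and 203 RPKM against 256 and 272 RPKM (-0.56, adjusted p = 0.00189), and at -0.23 under the offsets it was no longer called. The abundant light chain Dynlt3 was higher, at 239 and 246 RPKM against 189 and 167 RPKM (0.33, adjusted p = 0.0226), but -0.11 under the offsets. Its call held only without male B, with an adjusted p of 0.0776 to 0.148 when another library was left out. With GC and length offset, 10 genes of the list were higher and 10 lower, against 14.3% and 19.4% of all genes. The sex term left 11 higher and 7 lower, against 13.3% and 10.4%.

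**Figure D4:**
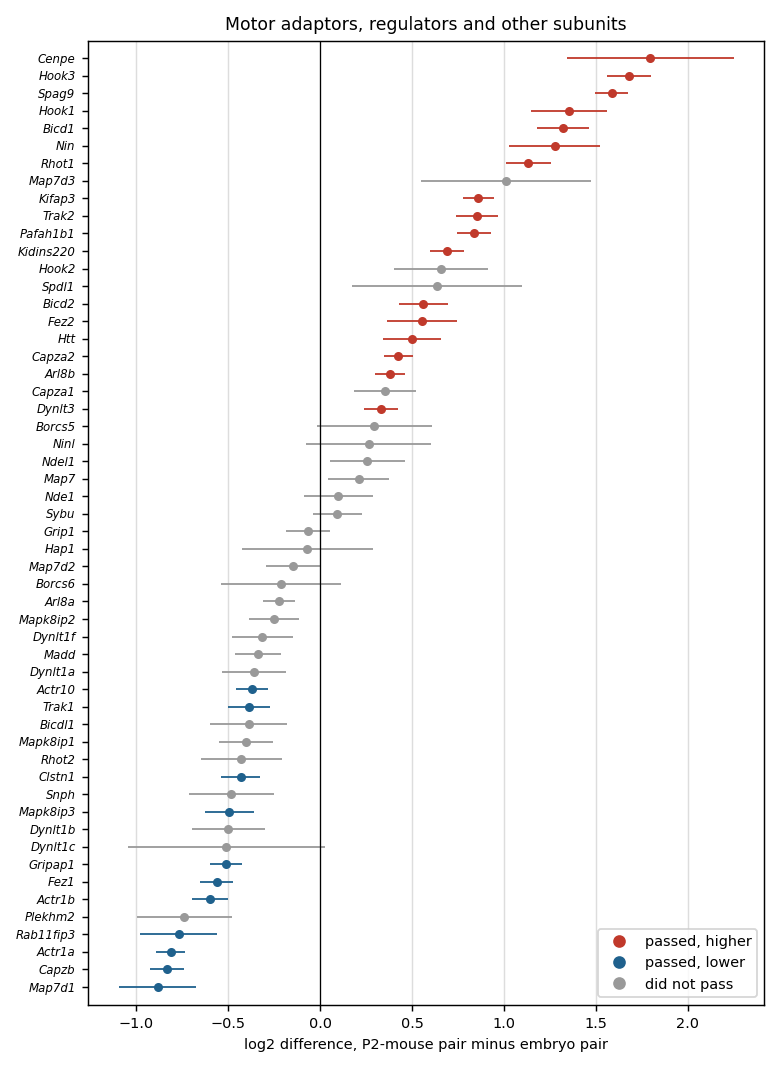
Log2 difference between the P2-mouse pair and the embryo pair for the 54 tested adaptors, regulators and further subunits, ordered by size. Points are edgeR estimates with bars of 1 SE (red called higher, blue called lower, grey not called); 17 lie to the right of 0 and passed, and 11 lie to the left and passed.

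The female library was then compared with the 3 males, the comparison the title names. No motor gene passed the test, against 0% of the 16708 genes tested (edgeR quasi-likelihood test, 56 motor genes, smallest adjusted p 0.951; 129 genes of the whole table had an unadjusted p under 0.05, and limma-voom and DESeq2 called no motor gene either). Having 1 library, the female group was taken to have the spread of the males, which includes the difference between the pool labels. The log2 differences ran from -2.44 for Kif26a (SE 1.15) to 1.98 for Kif18a (SE 0.99), and both genes also separated male A from male B and male C. Kif5a in female A, at 218 RPKM, lay within the male range of 188 to 244 RPKM, as did Kif1a at 47.8 RPKM within 43.7 to 81.2 RPKM. With the pool label as a term no motor gene passed, against 0.0239% of all genes, and the log2 differences ran from -1.05 for Kif6 to 2.88 for Kifc1. Of the alternatives run, motor genes passed only without male A, 5 higher and 10 lower, against 11.8% and 10.3% of all genes, and that fit sets female A against male B and male C. This sex comparison and that of the pairs rest on the same 4 libraries.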

How the data were processed

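From the sorted cells of each library, 10 ng of total RNA went through SMARTer Ultra Low amplification before 12 cycles of library PCR, per the labels' protocols. Per the submitters' processing notes, reads were counted per gene with featureCounts 1.4.5 on GRCm38.p2. The deposited count values are whole reads per gene. The deposited CPM values are counts over the library total, and the deposited RPKM values are CPM per kilobase of exon. Both follow the file headers and were recomputed from the counts. Not given in the sources used here were the aligner, annotation release, strand setting and handling of multimapping reads. Reads carry no molecular identifiers. Symbols from GENCODE M21 matched 40254 of the 41388 genes (97.3%).

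The P2-mouse pair was compared with the embryo pair, and the female with the males, by the edgeR 4.0.16 quasi-likelihood test in R 4.3.3 on the counts of all genes, after TMM scaling and the filterByExpr filter (at least 10 counts, total of at least 15), with Benjamini-Hochberg adjustment at 0.05 and 2 residual degrees of freedom (1 with a term for sex or pool label). The SE of a log2 difference was taken from the F statistic (absolute difference divided by the root of F). Each library is 1 animal by its labels. Alternatives were DESeq2 1.42.0, limma-voom (limma 3.58.1), other scaling and filters, offsets for length and GC content fitted per library (mgcv 1.9.3), and leaving out each library. The scripts were tested on simulated data. The motor genes, role groups, pathway list and marker lists were chosen with earlier results of these data known. Named with the value in every library were the 4 genes of each role group with the highest mean RPKM, up to 4 per role group and direction that passed the pair test, and mitotic kinesins of at least 1 CPM. Of the pathway list, the 3 most abundant and up to 5 per direction were named.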

Additional observations from a re-analysis of the deposited data

How the results depend on the processing

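The comparison of the pairs rests on 2 libraries against 2 that also differ in neuronal and Schwann cell markers, and GC content moves with the difference. The fit with sex as a term and that without female A both set male A against male B and male C, so they are not separate checks. In the sex comparison, the fit with the pool label sets female A against male A alone. Of the 30 motor genes called, 28 were still called in the same direction by DESeq2, 30 by limma-voom, 26 with the length offset, 21 with GC and length offsets, 16 with sex as a term, 18 without female A, 15 without male A, and 28 without male B or without male C. With GC and length offsets 5 motor genes and 2217 genes in all were higher. With sex as a term 9 motor genes were lower, and 2064 of all genes were higher and 1615 lower. Leaving out each library in turn gave 5 to 11 motor genes higher, 10 to 22 lower, and 1935 to 3630 genes higher and 1681 to 3311 lower in all, the lowest of each without male A. In the sex comparison DESeq2 called 1 gene higher and 4 lower, the fit with no filter 1 and 1, and that with the pool label 4 lower. Leaving out each male gave 0 to 5 motor genes higher and 0 to 10 lower, and 1 to 1935 of all genes higher and 4 to 1681 lower, the highest without male A.

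The log2 ratio of the axonal sums (0.04) was 0.22 without Kif5a, and that of the mitotic sums (0.10) was 0.41 by CPM and 0.62 without Kif22. By CPM the share of Dync1i1 differed by -13.1 points and that of Dync1li1 by -15.9 points. The following log2 differences changed sign, and the cause was not tested. With GC and length offsets these were Dync1i2 (-0.42), Klc4 (0.022), Kif16b (-0.068), Kif2a (-0.29), Kif15 (-0.064), Kifc1 (0.39), Dynlt3 (-0.11) and Capza2 (-0.21). With the length offset they were Dync1i2 (-0.20), Kif13a (-0.12) and Kifc1 (0.0039). With sex as a term they were Kif3a (0.045), Kif13b (-0.20), Kif24 (0.087) and Kif20a (0.14), and with a mean of at least 5 CPM Kif3a (0.012). Leaving out each library gave ranges across 0 for Kif3a (-0.076 to 0.050), Kif13b (-0.19 to 0.67), Kif21b (-0.58 to 0.24), Kif24 (-0.14 to 0.092), Kif20a (-0.79 to 0.14), Kif2c (-0.0066 to 0.85), Kifc1 (-2.15 to 1.10), Klc1 (-0.34 to 1.44) and Dynlrb2 (-0.19 to 0.89). No paired analysis was possible because only the letter A occurs in both sexes, so the groups share fewer than 2 replicate labels.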

Other observations

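The kinesins below did not pass or were not tested in the comparison of the pairs. Kif6, a kinesin known from motile cilia, had 11, 14, 34 and 21 counts in female A, male A, male B and male C. Kif1c, a kinesin-3 of many non-neuronal cells, had 96, 54, 11 and 43 counts, and its level of 0.470 and 0.427 RPKM in the P2-mouse pair lay above 0.0667 and 0.237 RPKM in the embryo pair (edgeR log2 difference 1.43, SE 0.55, adjusted p = 0.0715, and 0.00297 without male C). Kif13b, an endosomal kinesin-3 also known from myelinating Schwann cells, was at 2.09 RPKM in female A and between 1.08 and 1.33 RPKM in the 3 males. Kif27 had 7 and 6 counts in the P2-mouse pair and 1 and 1 in the embryo pair, the latter under the floor of 3 counts. Kif18b had 11, 5, 5 and 5 counts and Kif28 had 10, 4, 6 and 4.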
